A study of Mus musculus with 19 samples.

Results

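E2F transcription factors, the DP subunit that pairs with them and the pocket proteins that restrain them were examined in tongue epithelia of mice expressing oncogenic transgenes. The 10 genes were taken as a named list, namely the E2F genes E2f1, E2f2, E2f3, E2f6, E2f7 and E2f8, the DP gene Tfdp1 and the pocket protein genes Rb1, Rbl1 and Rbl2, and all 10 were found among the 24689 gene symbols of the expression table. RNA of whole tongue epithelia from 19 mice was sequenced 15 days after transgene induction, as poly(A)-selected libraries. Each of the 3 transgenic groups carried Krt14-CreERT, which directs an inducible recombinase to basal keratinocytes through the keratin 14 promoter, and LSL-rtTA, the doxycycline-dependent activator that the recombinase switches on. To these, the 5 E mice added tetON_E6-E7, the oncogenes of human papillomavirus, the 3 Y mice added tetON_YAP1S127A, a constitutively active form of the transcriptional coactivator YAP, and the 6 EY mice added both. Among the 5 N mice, mice 1 to 3 carried Krt14-CreERT and LSL-rtTA with neither effector, mouse 4 carried LSL-rtTA without the recombinase, and mouse 5 carried Krt14-CreERT with both effectors but no rtTA. By the methods of the study, tamoxifen was injected into the tongue, doxycycline was given in the diet, the lines also held a tetON_H2B-GFP reporter, and groups were littermates balanced for age and sex. A group therefore reports on a whole epithelium in which keratinocytes of the basal layer had been induced, together with any neighbouring cells that were dissected with it.

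E2F factors bind DNA as dimers with a DP protein and set the pace of entry into S phase. E2F1, E2F2 and E2F3 activate genes of DNA replication, E2F6 is a repressor that works with Polycomb proteins and does not bind pocket proteins, and the atypical E2F7 and E2F8 repress the same targets late in S phase without a DP partner. The pocket proteins RB (from Rb1), p107 (from Rbl1) and p130 (from Rbl2) hold E2F factors in check until cyclin-dependent kinases phosphorylate them, and the E7 oncoprotein binds all of them and releases E2F, while YAP with TEAD factors activates many genes of the cell cycle in epithelia.

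Levels are given as TPM, a unit that corrects for gene length and library size, as the authors deposited them. The TPM of every gene above 0 were whole multiples of a step, within 0.01 of a read, from which 8269674 to 11007304 reads per mouse were recovered, and even E2f7, the lowest of the members, rested on 21 to 44 reads in each N mouse. Differences were tested with limma on log2(TPM + 0.1) over the 22745 genes that reached 0.1 TPM in 3 or more mice, 10 of 10 members among them, in a single fit of the 4 groups. A gene is called changed below where its Benjamini-Hochberg adjusted p was under 0.01, and a DEG where in addition its log2 fold change was beyond 1 in size. Fold changes are on the TPM + 0.1 scale, which understates those of the lowest genes. In bulk tissue, fewer cells of a type and less RNA per cell cannot be told apart.

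Most genes were somewhat higher in EY epithelia, and this shift bears on every value below. Over all genes tested, the log2 fold change against N had a median of 0.33 for EY, 0.07 for E and 0.13 for Y, and of 0.01, -0.02 and -0.03 after median-of-ratios scaling of the TPM. With that scaling, the genes changed in EY numbered 3081 higher and 3133 lower in place of 5435 and 1813. Members are therefore given with both values where the scaling moved a call, a DEG call or a sign. Where the mice of 2 groups are said not to overlap, the share of all genes that separate likewise was not computed. Such separation describes the gene and is not read as particular to the family. Where 3 values follow each other below for a gene list, they belong to EY, E and Y against N in this order.

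The family was mostly higher in EY epithelia. In EY against N, 8 of the 10 members were higher by limma and 0 lower, where 23.9% of all genes were higher and 7.97% lower, and 7 were DEGs that were higher, against 12.6% of all genes. E2f7, E2f6, E2f8, E2f2, Tfdp1, E2f1 and Rbl1 made up the 7 DEGs, E2f3 changed by less, and Rb1 and Rbl2 did not pass. After scaling, E2f1 (0.94) and Rbl1 (0.81) stayed changed but were below a log2 fold change of 1, and after quantile normalization 4 members were DEGs. In Y against N, 4 members were higher (E2f2, E2f6, E2f7 and Tfdp1) beside 7.17% of all genes, and 1 of them, E2f7, was a higher DEG beside 3.47%. In E against N, 6 members were higher (E2f1, E2f2, E2f6, E2f7, E2f8 and Rbl1) beside 1.71% of all genes, and 3 of them, E2f2, E2f7 and E2f8, were higher DEGs beside 1.16%, with E2f2 at 0.92 after scaling. These 3 comparisons share the N mice. The members had median log2 fold changes of 1.36 (EY), 0.72 (E) and 0.76 (Y), and of 0.98, 0.61 and 0.56 after scaling. In fits restricted to the 2 groups compared, which estimate the variance from fewer mice, 7 members were called in EY, 1 in E and 0 in Y.

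**Figure D1:**
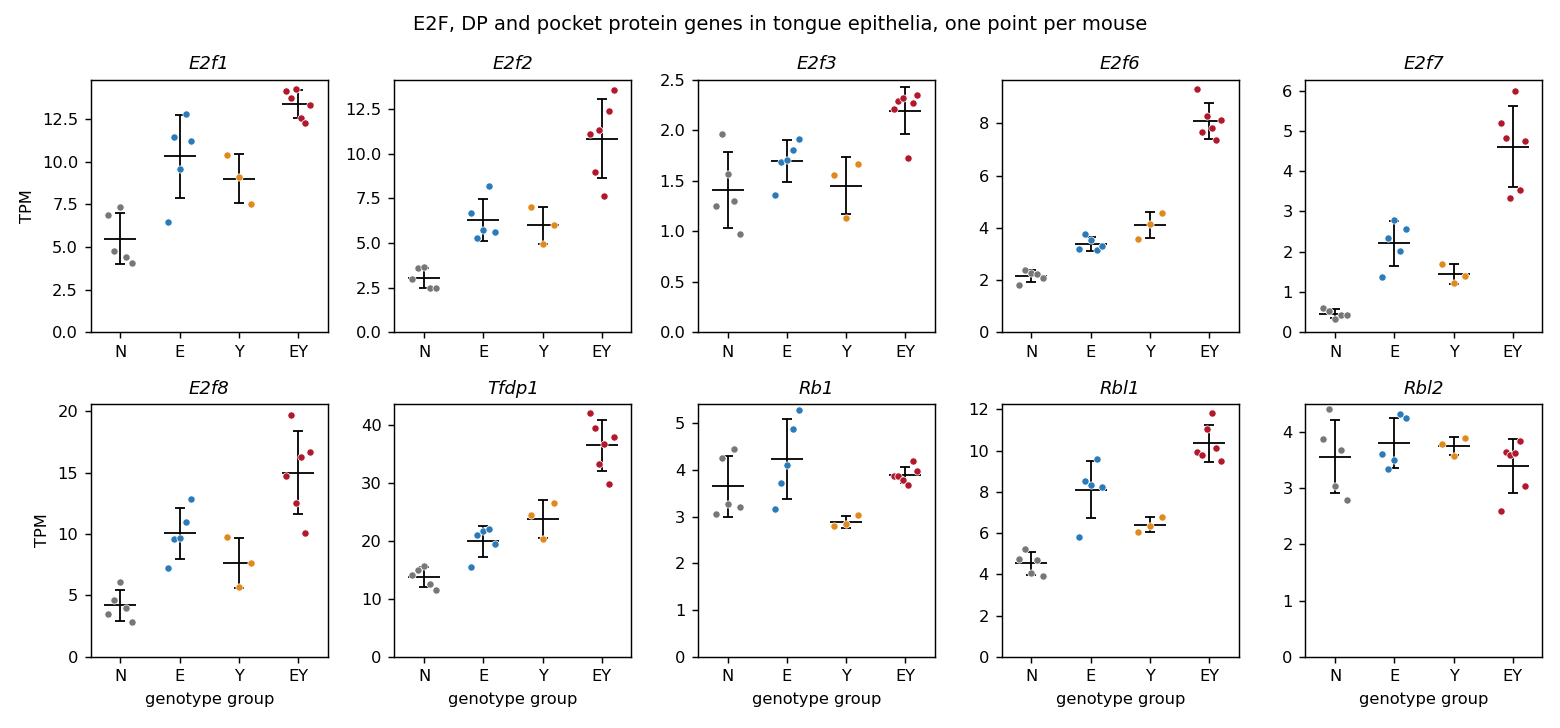
TPM of each member (y axis, from 0) in the N, E, Y and EY mice (x axis), with a point for each mouse and bars for the mean ± SD of 5, 5, 3 and 6 mice. The 6 EY mice lie above all 5 N mice for E2f1, E2f2, E2f6, E2f7, E2f8, Tfdp1 and Rbl1. They overlap with the N mice for E2f3, Rb1 and Rbl2. The share of all genes that separate in this way was not computed.

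The E2F genes are themselves known targets of E2F factors, and the promoters of the members were searched for E2F motif letters because so many members moved in the same direction. RefSeq promoters (GRCm38.p6, 250 bases before to 50 after a gene start) were given for 9 of the 10 members, and Rb1 had no entry. The letters TTTCCCGC, TTTCGCGC, TTTGCCGC or TTTGGCGC, on either strand, were present for 5 of the 9 members (E2f2, E2f3, E2f7, Tfdp1 and Rbl1), and for 2.60% of the 27025 genes and 2.26% of the 32851 promoters of the same table. The sequences that hold them are shown 5′ to 3′ along the strand of the gene with the E2F letters in capitals, each as the 250 bases before the start, apart from E2f2, where the letters lie 40 bases after the start and 30 bases are given.
E2f2, + strand, chr4:136172294-136172323: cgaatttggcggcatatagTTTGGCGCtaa
E2f3, - strand, chr13:29986064-29986313: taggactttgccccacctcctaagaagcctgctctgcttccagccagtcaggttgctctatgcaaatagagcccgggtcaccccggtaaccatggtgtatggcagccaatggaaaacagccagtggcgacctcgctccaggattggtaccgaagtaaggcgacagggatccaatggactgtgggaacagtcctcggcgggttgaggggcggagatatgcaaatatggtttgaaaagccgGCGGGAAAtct
E2f7, + strand, chr10:110745189-110745438: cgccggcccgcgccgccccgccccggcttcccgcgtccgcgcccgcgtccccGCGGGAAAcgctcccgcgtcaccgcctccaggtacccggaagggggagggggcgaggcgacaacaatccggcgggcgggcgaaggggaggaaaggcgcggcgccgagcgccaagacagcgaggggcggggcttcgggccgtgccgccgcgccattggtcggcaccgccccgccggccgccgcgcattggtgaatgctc
Tfdp1, + strand, chr8:13338501-13338750: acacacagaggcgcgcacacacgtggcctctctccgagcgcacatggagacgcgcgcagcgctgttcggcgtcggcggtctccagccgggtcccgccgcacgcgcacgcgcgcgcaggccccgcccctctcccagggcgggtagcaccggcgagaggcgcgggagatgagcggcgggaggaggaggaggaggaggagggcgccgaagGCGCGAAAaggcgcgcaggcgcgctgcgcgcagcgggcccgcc
Rbl1, - strand, chr2:157204535-157204784: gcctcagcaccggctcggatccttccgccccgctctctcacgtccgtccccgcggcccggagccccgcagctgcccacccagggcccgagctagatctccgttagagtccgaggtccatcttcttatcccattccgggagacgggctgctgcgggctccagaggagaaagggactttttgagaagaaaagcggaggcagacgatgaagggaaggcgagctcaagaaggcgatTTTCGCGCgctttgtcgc

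In Rbl1 the letters began 18 bases before the start and in E2f3 11 bases before it, while in Tfdp1 they began 43 and in E2f7 198 bases before it. Tfdp1 has a further start whose promoter overlaps the one shown and holds the same letters, and E2f3 is shown for the upstream of its starts. The CHR letters TTTGAA, an element of mitotic promoters, were found for E2f2, E2f3, E2f8 and Rbl2, that is 4 of 9 members against 20.2% of genes. The TEAD letters CATTCC were found for Rbl1 alone, where 16.6% of genes hold them. These matches describe short windows and were not tested, and a window without a match, such as that of E2f1 or E2f6, says nothing about the factor.

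Among the activators, E2f1 had TPM of 6.85, 4.75, 7.32, 4.41 and 4.07 in N mice 1 to 5. It had 6.48, 11.4, 9.56, 12.8 and 11.2 in the E mice, 10.4, 9.09 and 7.54 in the Y mice, and 12.2, 13.5 and 14.3 (lowest, median and highest) in the 6 EY mice. The EY mice formed the tightest of the groups for this gene and lay above every N and Y mouse, while E mouse 1 fell among the N mice. E2f1 was higher in EY by a log2 fold change of 1.31 ± 0.18 (SE; adjusted p = 1.05e-05, limma) and in E by 0.90 ± 0.18 (adjusted p = 0.00806), and the value in Y, 0.73 ± 0.21, did not pass (adjusted p = 0.0241). The call in E lay close to the threshold and was lost after median-of-ratios scaling (0.79, limma adjusted p = 0.0124). Over all alternative fits its limma adjusted p ran from 0.000662 to 0.107, the highest against only the 3 N mice with Krt14-CreERT and LSL-rtTA, and it was lost in 14 of the 19 fits that left out a mouse.

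E2f2, an activator expressed in cycling cells, had TPM of 2.96, 3.62, 3.65, 2.5 and 2.48 in the N mice, 6.67, 5.26, 5.71, 8.22 and 5.62 in the E mice and 7.01, 4.97 and 5.99 in the Y mice. In the EY mice the lowest, median and highest were 7.65, 11.2 and 13.6. No mouse of E, Y or EY overlapped with N, the E and Y mice shared a range, and 5 of 6 EY mice lay above both. The gene was higher in EY (log2 fold change 1.80 ± 0.17, adjusted p = 1.80e-07), in E (1.03 ± 0.17, adjusted p = 0.00184) and in Y (0.96 ± 0.20, adjusted p = 0.00347) by limma. Over all alternative fits the limma adjusted p ran from 0.00112 to 0.0349 in E and from 0.00221 to 0.0306 in Y, both highest against the 3 N mice with the full driver genotype, and in Y the call also ended without Y mouse 1 (0.0238) or Y mouse 3 (0.0191).

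E2f3, the remaining activator, was expressed at a lower level, with TPM of 1.25, 1.97, 1.57, 1.30 and 0.97 in the N mice, 1.36, 1.69, 1.71, 1.81 and 1.92 in the E mice and 1.56, 1.14 and 1.67 in the Y mice. In the EY mice the lowest, median and highest were 1.73, 2.28 and 2.35. The N, E and Y mice overlapped throughout, and 5 of 6 EY mice were above all of them, with EY mouse 4 apart at the low end. The log2 fold change was 0.63 ± 0.17 in EY (adjusted p = 0.00698, limma) and 0.28 after median-of-ratios scaling (adjusted p = 0.144). The call was also lost after quantile normalization (limma adjusted p = 0.0852), against the 3 N mice with the full driver genotype (0.0758), in the fit of EY and N alone (0.0227) and with the mouse number as a block (0.0281). Without a mouse it was lost in 8 of 19 fits, with the lowest of those values, 0.52, without N mouse 5 (limma adjusted p = 0.0243). It was kept by voom. In Y it was 0.06, and -0.13 after scaling, and in E 0.28, none of them past the threshold.

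E2f6, the repressor that works without pocket proteins, had the lowest adjusted p of the members in EY. Its TPM were 1.82, 2.38, 2.27, 2.24 and 2.06 in the N mice, 3.20, 3.76, 3.53, 3.14 and 3.29 in the E mice, 3.58, 4.13 and 4.58 in the Y mice, and 7.37, 7.99 and 9.30 (lowest, median and highest) in the EY mice. Each of the E, Y and EY mice was above each N mouse, and the lowest EY mouse was above the highest mouse of any other group. The log2 fold change was 1.86 ± 0.10 in EY (adjusted p = 6.14e-10), 0.90 ± 0.12 in Y (adjusted p = 0.000114) and 0.63 ± 0.11 in E (adjusted p = 0.00184), and 1.5, 0.70 and 0.52 after scaling, all of them past the limma threshold. In E the call was lost against the 3 N mice with the full driver genotype (limma adjusted p = 0.017) and in the fit of E and N alone (0.0368), the highest over all alternatives. On the log2 scale EY exceeded what adding both single-transgene changes gives by 0.34 ± 0.16 (interaction, limma adjusted p = 0.372).

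E2F6 acts in the repressor complex PRC1.6, of whose other genes 6 of 10 were higher in EY (L3mbtl2, Mga, Pcgf6, Yaf2, Cbx3 and Wdr5), 1 in Y (Wdr5) and 0 in E by limma, where 23.9%, 7.17% and 1.71% of all genes were higher. In E, 3 of the 10 had an unadjusted limma p under 0.05. Their median log2 fold changes were 0.99, 0.23 and 0.23, beside the all-gene medians of 0.33, 0.07 and 0.13. Mga, the scaffold of the complex, had means of 6.05 ± 1.36 (N), 7.54 ± 1.26 (E), 6.46 ± 1.58 (Y) and 14.4 ± 1.87 TPM (EY; SD of 5, 5, 3 and 6 mice). Scaling left 6 higher in EY and turned 1 further gene of the list to lower.

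Of 8 germline genes known to be silenced through E2F6 or PRC1.6, 2 passed the filter, Smc1b through its E and EY mice alone, Slc25a31 was below the filter, and Tuba3a, Tuba3b, Hormad1, Stk31 and Mael were not analysed here. Stag3, a meiotic cohesin subunit, had 0.168 to 0.438 TPM in the N mice and 0.0449 to 0.244 in the Y mice, but 7.85 to 21.5 in the E mice and 15.9 to 25.3 in the EY mice. Smc1b, another meiotic cohesin subunit, had at most 0.0495 TPM in any N mouse and 0.0429 in any Y mouse, against 0.651 to 1.35 in E and 0.352 to 1.36 in EY. For Stag3 all E and EY mice lay above all N and Y mice. N mouse 5, which carries E6-E7 but no rtTA, lay with the other N mice. The log2 fold change of Stag3 was 5.86 ± 0.27 in EY (adjusted p = 1.03e-10) and 5.32 ± 0.28 in E (adjusted p = 2.23e-08) by limma, and -0.54 in Y, which did not pass. No test is given for Smc1b, whose place among the tested genes depended on the groups where it was high. For the same reason its ranges are a description and add no support to those of Stag3. E2f6 itself lay above all E mice in 2 of 3 Y mice (log2 difference 0.27 ± 0.12, limma adjusted p = 0.206), a difference that did not pass.

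The atypical repressor E2f7 had the largest fold changes against N among the members on the TPM + 0.1 scale. Its TPM were 0.598, 0.531, 0.320, 0.422 and 0.423 in the N mice, 1.36, 2.35, 2.78, 2.01 and 2.56 in the E mice, 1.7, 1.21 and 1.39 in the Y mice, and 3.34, 4.78 and 5.99 (lowest, median and highest) in the EY mice. The E and Y mice lay wholly between the N and EY mice and overlapped with each other. The log2 fold change was 3.07 ± 0.21 in EY (8.37-fold, adjusted p = 5.90e-09), 2.03 ± 0.22 in E (4.09-fold, adjusted p = 1.82e-05) and 1.47 ± 0.25 in Y (2.76-fold, adjusted p = 0.000734) by limma. After scaling the values were 2.72, 1.94 and 1.30, and all 3 remained past the threshold. With a pseudocount of 1 TPM, which weighs low levels less, they were 1.92, 1.12 and 0.74, still past it, and in Y the last of these was below those of E2f2 (0.79), Tfdp1 (0.75) and E2f8 (0.744).

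E2f8, the other atypical repressor, had TPM of 3.49, 4.6, 6.12, 3.96 and 2.82 in the N mice, 7.22, 9.61, 9.70, 11 and 12.9 in the E mice, and 9.75, 5.65 and 7.62 in the Y mice. In the EY mice the lowest, median and highest were 10.1, 15.5 and 19.7. The E and EY mice lay above all N mice, and Y mouse 2 fell within N. E2f8 was higher in EY (log2 fold change 1.83 ± 0.21, adjusted p = 1.96e-06) and in E (1.27 ± 0.22, adjusted p = 0.00217), whereas 0.87 ± 0.25 in Y did not pass (adjusted p = 0.0259, limma). In E the limma adjusted p ran from 0.000924 to 0.0337 over all alternatives, the highest against the 3 N mice with the full driver genotype.

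Because a ratio of 2 genes within a mouse does not depend on scaling, E2f7 and E2f8 were set against the activator E2f1. The E2f7/E2f1 ratio was 0.0873, 0.112, 0.0437, 0.0957 and 0.104 in the N mice, 0.210, 0.205, 0.291, 0.157 and 0.227 in the E mice, 0.164, 0.133 and 0.184 in the Y mice, and 0.234, 0.354 and 0.477 (lowest, median and highest) in the EY mice. All E, Y and EY mice were above all N mice, and the EY mice overlapped only with E. The mean log2 ratio was higher by 2.00 in EY (exact permutation p = 0.00433, two-sided, adjusted p = 0.0208 over 24 ratio tests), by 1.34 in E (p = 0.00794, adjusted p = 0.0238) and by 0.92 in Y (p = 0.0357, adjusted p = 0.0571, where 0.0357 is the smallest exact p of 3 against 5 mice). The E2f8/E2f1 ratio had means of 0.780 ± 0.182 (N), 0.994 ± 0.141 (E), 0.857 ± 0.207 (Y) and 1.12 ± 0.246 (EY; SD of 5, 5, 3 and 6 mice). Its groups overlapped, and the differences from N had adjusted exact permutation p of 0.0649 in EY, 0.101 in E and 0.607 in Y.

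**Figure D2:**
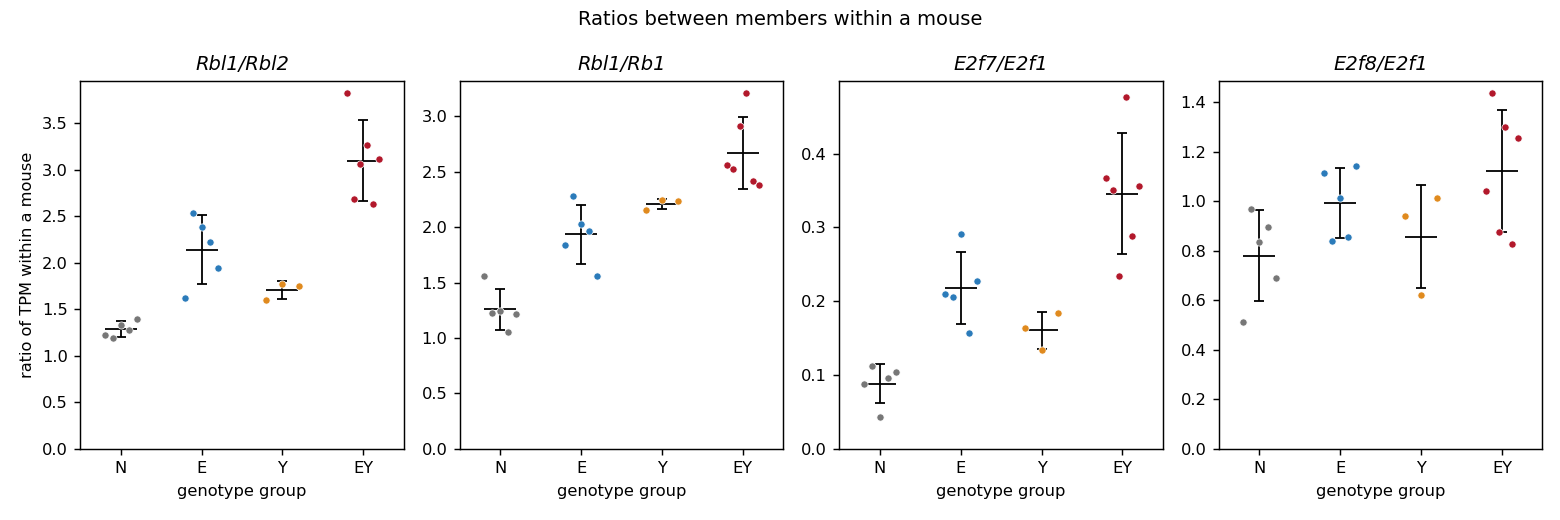
Ratios of the TPM of 2 members within each mouse (y axes, from 0) in the N, E, Y and EY mice (x axes), with a point for each mouse and bars for the mean ± SD of 5, 5, 3 and 6 mice. Rbl1/Rbl2, Rbl1/Rb1 and E2f7/E2f1 lie higher in every E, Y and EY mouse than in any N mouse, and the E2f8/E2f1 groups overlap.

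Tfdp1, the DP subunit that typical E2F factors need for binding, was the most abundant member in each group. Its TPM were 14, 14.9, 15.7, 12.5 and 11.5 in the N mice, 15.5, 21.0, 21.7, 21.9 and 19.4 in the E mice, 24.4, 20.3 and 26.6 in the Y mice, and 29.7, 37.2 and 42.0 (lowest, median and highest) in the EY mice. The EY mice were above all others, the Y mice were above N, and E mouse 1 lay within N. The log2 fold change was 1.40 ± 0.12 in EY (adjusted p = 4.79e-08) and 0.78 ± 0.14 in Y (adjusted p = 0.000992), and 0.53 ± 0.12 in E did not pass (adjusted p = 0.0187, limma). In Y the call was lost without Y mouse 3 (log2 fold change 0.70, adjusted p = 0.0113) and against the 3 N mice with the full driver genotype (limma adjusted p = 0.0109).

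The 3 pocket protein genes did not move together. Rbl1, which encodes p107, had TPM of 4.75, 5.23, 4.07, 4.69 and 3.90 in the N mice, 5.83, 8.51, 8.33, 9.59 and 8.25 in the E mice, 6.05, 6.36 and 6.79 in the Y mice, and 9.48, 10 and 11.8 (lowest, median and highest) in the EY mice. No transgenic mouse overlapped with N, and 5 of 6 EY mice were above all E mice. Rbl1 was higher in EY (log2 fold change 1.18 ± 0.12, adjusted p = 3.58e-07) and in E (0.82 ± 0.12, adjusted p = 0.000525), while 0.50 ± 0.14 in Y did not pass (adjusted p = 0.0221, limma).

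Rb1, which encodes RB itself, had TPM of 3.05, 4.26, 3.29, 4.45 and 3.21 in the N mice, 3.16, 3.73, 4.11, 4.89 and 5.28 in the E mice, and 2.81, 2.84 and 3.04 in the Y mice. In the EY mice the lowest, median and highest were 3.69, 3.87 and 4.19. The EY and E mice overlapped with N, and the 3 Y mice lay just below the lowest mouse of each other group. By limma, the log2 fold change was 0.11 in EY (95% CI -0.18 to 0.39, adjusted p = 0.572), 0.20 in E (adjusted p = 0.589) and -0.31 in Y (95% CI -0.66 to 0.04, adjusted p = 0.231). After scaling, the sign in EY turned to -0.26 (adjusted p = 0.140) and the value in Y was -0.50 (limma adjusted p = 0.0474), neither of them past the threshold.

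Rbl2, which encodes p130, the pocket protein of quiescent cells, had TPM of 3.88, 4.4, 3.04, 3.68 and 2.78 in the N mice, 3.6, 3.35, 3.49, 4.31 and 4.24 in the E mice, and 3.78, 3.58 and 3.88 in the Y mice. In the EY mice the lowest, median and highest were 2.59, 3.61 and 3.84. All 4 groups overlapped. The log2 fold change was -0.06 in EY (95% CI -0.35 to 0.23, adjusted p = 0.765), 0.09 in Y and 0.10 in E, and after scaling -0.43 (adjusted p = 0.0147), -0.10 and -0.01, so that relative to the median gene Rbl2 was below N in EY without passing the limma threshold.

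The contrast within the pocket proteins was largest in EY. The Rbl1/Rbl2 ratio was 1.23, 1.19, 1.34, 1.27 and 1.40 in the N mice, 1.62, 2.54, 2.38, 2.22 and 1.95 in the E mice, 1.6, 1.78 and 1.75 in the Y mice, and 2.63, 3.09 and 3.82 (lowest, median and highest) in the EY mice. The N, Y and EY mice did not overlap, and the E mice lay between N and EY. The mean log2 ratio was above N by 1.26 in EY (exact permutation p = 0.00433, adjusted p = 0.0208), by 0.72 in E (p = 0.00794, adjusted p = 0.0238) and by 0.41 in Y (p = 0.0357, adjusted p = 0.0571). It was also higher in EY than in E by 0.54 (exact permutation p = 0.00433, adjusted p = 0.0208) and than in Y by 0.85 (p = 0.0238, adjusted p = 0.0476), a call that ended in 13 of the 19 tests without a mouse, namely without any Y or EY mouse or without E mouse 1, 2, 4 or 5 (adjusted p of 0.0519 to 0.122). The Rbl1/Rb1 ratio, with means of 1.26 ± 0.183 (N), 1.94 ± 0.263 (E), 2.21 ± 0.0489 (Y) and 2.67 ± 0.326 (EY; SD of 5, 5, 3 and 6 mice), was above N in every mouse of the other groups, with log2 differences of 1.09 in EY (adjusted exact permutation p = 0.0208), 0.62 in E (0.0238) and 0.82 in Y (0.0571). With the N group cut to its 3 mice of the full driver genotype, no ratio test passed 0.05 after adjustment, and the log2 differences in EY were 1.30 for Rbl1/Rbl2 and 2.16 for E2f7/E2f1.

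**Figure D3:**
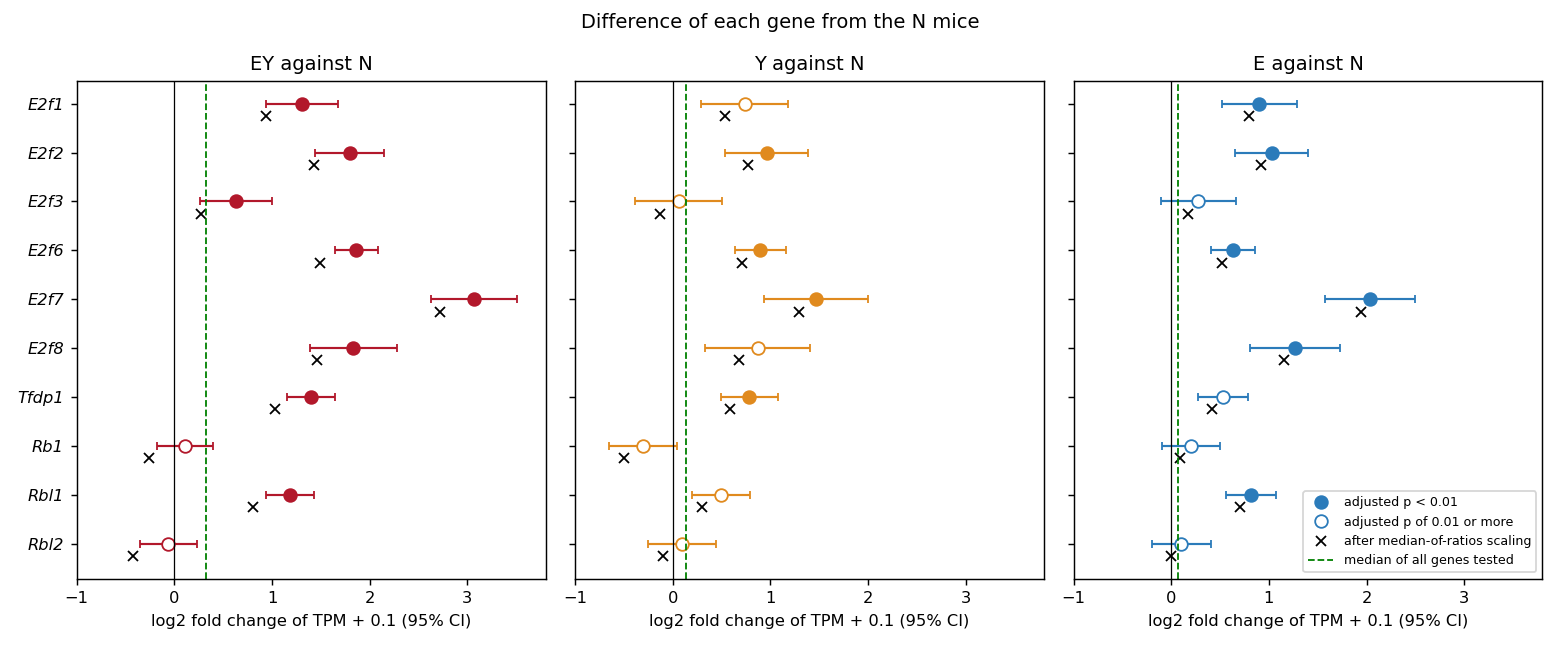
Log2 fold change of TPM + 0.1 (x axis) of each member (y axis) in EY, Y and E against N, with 95% confidence intervals from limma; filled points have an adjusted p below 0.01, crosses give the value after median-of-ratios scaling, and the dashed line is the median of all genes tested. E2f7 lies farthest to the right in each comparison, at 3.07 in EY, and the crosses of Rb1 and Rbl2 lie below 0 in EY.

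By mean level, Tfdp1 came first in every group, and most other members changed places between groups. In N, Tfdp1 (13.7 ± 1.7 TPM, SD, n = 5) stood apart at the top and E2f7 (0.459 ± 0.108) at the bottom. Between them E2f1 (5.48), Rbl1 (4.53), E2f8 (4.20), Rb1 (3.65), Rbl2 (3.56) and E2f2 (3.04) ran on with overlapping neighbours, followed by E2f6 (2.15) and E2f3 (1.41), whose mice also overlapped. In EY, E2f8 (15 ± 3.38, n = 6) followed Tfdp1 (36.5 ± 4.39) and overlapped with E2f1 (13.4 ± 0.835), while E2f7 (4.60 ± 1.00) overlapped with Rb1 (3.90 ± 0.171), and E2f3 (2.20 ± 0.234) stood last. E2f2 came at place 7 in N and at place 4 in EY, E2f6 at 8 and 6, Rb1 at 5 and 8, and Rbl2 at 6 and 9, while E2f7 was last in Y as in N.

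The family also holds E2f4 and E2f5, which act mostly as repressors with p130 and p107, and Tfdp2, a second DP gene, of which only E2f4 changed, with 24.5 ± 3.8 TPM in N and 44.4 ± 8.31 in EY (log2 fold change 0.84 ± 0.15, adjusted p = 0.000233, limma). After scaling this was 0.47 (limma adjusted p = 0.0110). Of the summed TPM of E2f1 to E2f8, E2f4 made up 55.4 ± 4.09% (N), 41.8 ± 5.96% (E), 49.8 ± 3.09% (Y) and 42.9 ± 3.18% (EY; SD of 5, 5, 3 and 6 mice). The sum itself was 44.3 ± 6.28 (N), 63.9 ± 6.38 (E), 67.4 ± 9.91 (Y) and 103 ± 12.4 TPM (EY). In the same order of groups, E2f7 and E2f8 together took 10.4 ± 1.56%, 19.2 ± 3.58%, 13.4 ± 1.47% and 19 ± 2.68%, and E2f6 took 4.91 ± 0.627%, 5.33 ± 0.581%, 6.20 ± 1.34% and 7.95 ± 0.967%. Among the pocket proteins, the Rbl1 share was 38.7 ± 1.59%, 50.1 ± 3.68%, 49.0 ± 1.04% and 58.7 ± 2.43%. These shares were not tested.

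**Figure D4:**
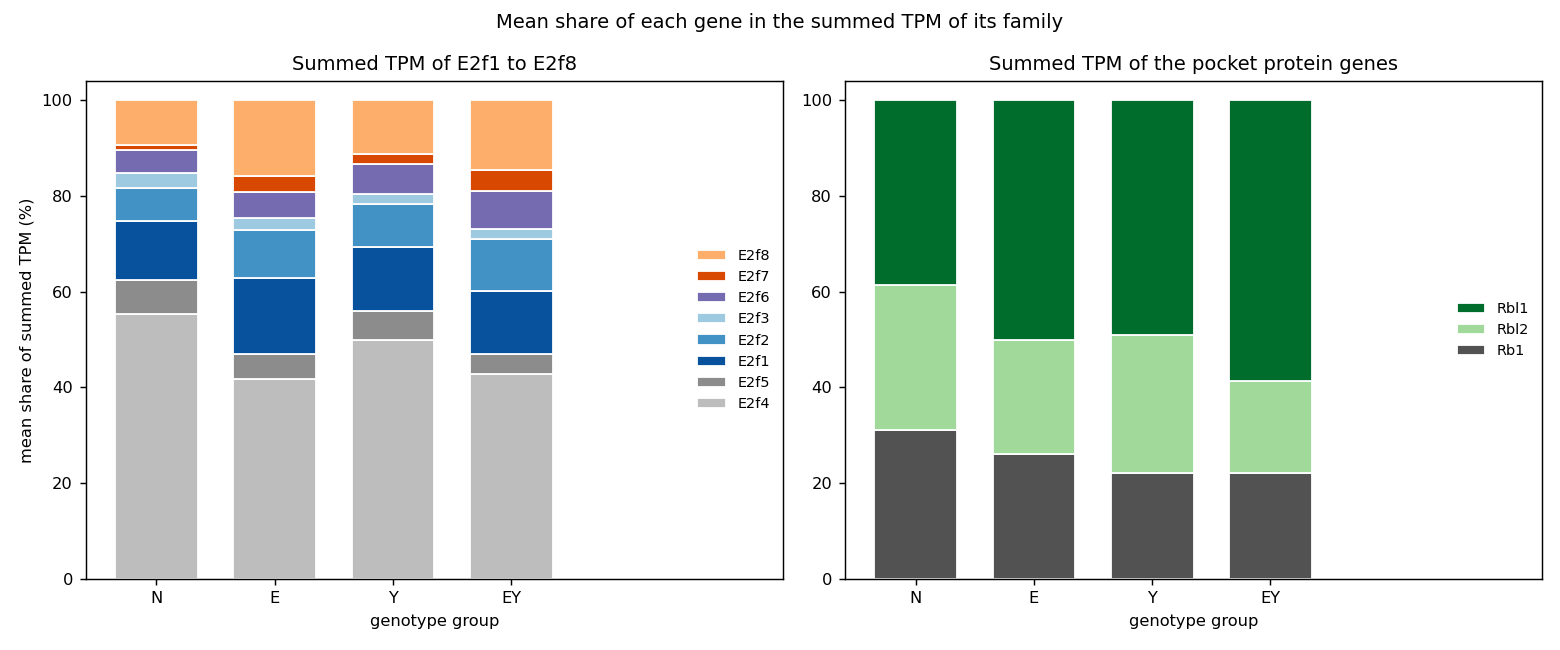
Mean share of each gene (y axis, percent from 0 to 100) in the summed TPM of E2f1 to E2f8 (left) and of Rb1, Rbl1 and Rbl2 (right) in the N, E, Y and EY groups of 5, 5, 3 and 6 mice (x axis). The E2f4 share is 55.4% in N and 42.9% in EY, and the Rbl1 share is 38.7% in N and 58.7% in EY.

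Some members were higher with both transgenes than with either alone. In EY against Y, 4 members were higher (E2f6, E2f7, Tfdp1 and Rbl1) beside 2.34% of all genes, with log2 fold changes of 0.97 ± 0.12 for E2f6, 1.6 ± 0.24 for E2f7, 0.62 ± 0.14 for Tfdp1 and 0.68 ± 0.14 for Rbl1 and adjusted p of 0.000166, 0.000819, 0.00889 and 0.00502 by limma. After scaling, E2f6 (0.79) and E2f7 (1.42) remained, and Tfdp1 (0.44, limma adjusted p = 0.0180) and Rbl1 (0.51, adjusted p = 0.0195) did not pass. The Tfdp1 call was lost in 14 of the 19 fits without a mouse (limma adjusted p of 0.0103 to 0.0618), among them each that left out a Y mouse, and the Rbl1 call without any Y mouse or without EY mouse 4 (0.0117 to 0.0343). With the mouse number as a block only E2f6 was called, and the limma adjusted p of E2f7 was 0.0103.

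In EY against E, 4 members were higher (E2f2, E2f6, E2f7 and Tfdp1), a share to be read beside 18.1% of all genes. The log2 fold changes were 0.77 ± 0.17 for E2f2, 1.23 ± 0.10 for E2f6, 1.03 ± 0.21 for E2f7 and 0.87 ± 0.12 for Tfdp1, with adjusted p of 0.00146, 1.22e-07, 0.000790 and 1.53e-05 by limma. E2f6 and Tfdp1 showed no overlap between the EY and E mice, and neither did E2f7. E2f6 and E2f7 were the 2 DEGs, and after scaling both stayed changed but below a log2 fold change of 1 (0.97 and 0.78). After scaling E2f2 no longer passed (0.51, limma adjusted p = 0.0109), and after quantile normalization neither E2f2 (0.51, adjusted p = 0.0125) nor E2f7 did (0.79, adjusted p = 0.0122). Rbl1 was 0.37 ± 0.12 higher in EY than in E (limma adjusted p = 0.0211), and 0.10 after scaling.

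Between the single transgenes, 0 of 10 members differed in Y against E by limma, beside 4.34% of all genes in either direction, while 4 members had an unadjusted limma p under 0.05 (E2f6 higher in Y, and E2f7, Rb1 and Rbl1 higher in E), and voom on the recovered reads also called 0. Rb1 had the lowest adjusted p of these, 0.0591, at a log2 difference of -0.51 ± 0.16. The interaction EY - E - Y + N was called for 0 of 10 members beside 0.198% of all genes, with 0 at an unadjusted p under 0.05 and 0 by voom. Its values ran from -0.43 for E2f7 to 0.34 for E2f6, with standard errors of 0.16 to 0.33.

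Listed S phase targets of E2F factors were followed as well. Of 26 such genes, limma called 26 higher in EY, 19 in E and 9 in Y, where 23.9%, 1.71% and 7.17% of all genes were higher, with median log2 fold changes of 1.96, 1.08 and 0.77. Their summed TPM were 355, 357, 396, 333 and 353 in the N mice, 557, 847, 934, 1076 and 921 in the E mice, 594, 670 and 752 in the Y mice, and 1288, 1406 and 1707 (lowest, median and highest) in the EY mice, with Pcna the most abundant. E mouse 1, which held the lowest E value for 7 of the 10 members, also held the lowest E value of this sum. After scaling, 25, 17 and 6 targets were higher. In Y against E, 0 of the 26 differed by limma (5 at an unadjusted p under 0.05), and 1 was lower after scaling. Rrm2, a subunit of ribonucleotide reductase, had means of 21.1 ± 3.96 (N), 105 ± 35.2 (E), 69.1 ± 18.2 (Y) and 217 ± 95.6 TPM (EY; SD).

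Genes of G2 and mitosis, which mark proliferating cells, moved with the members as well. All 14 of the 14 tested (Bub1 was not analysed here) were higher in EY, E and Y by limma, where 23.9%, 1.71% and 7.17% of all genes were higher. The 14 genes had median log2 fold changes of 3.05, 1.76 and 2.07. Their summed TPM were 120, 164, 122, 112 and 131 in the N mice, 381, 402, 495, 548 and 474 in the E mice, 511, 532 and 621 in the Y mice, and 964, 1132 and 1176 (lowest, median and highest) in the EY mice, with Cdc20, Ccna2 or Mki67 the most abundant, depending on the mouse, and none of the genes at 0 in any mouse. The part of proliferating cells in the levels of the members was not tested. Relative to the mean log2 level of these 14 genes in the same mouse, E2f7 stood in EY at 0.02 of its N level on the log2 scale (lowest mouse -0.21, highest 0.29), E2f6 at -1.18, E2f8 at -1.21, E2f2 at -1.25, Tfdp1 at -1.64, E2f1 at -1.73, Rbl1 at -1.86, E2f3 at -2.41, Rb1 at -2.94 and Rbl2 at -3.10. On the TPM + 0.1 scale, E2f7 was thus the member whose level kept pace with these genes in EY, and each of the others lagged behind them. In E these relative levels were 0.26 for E2f7 and -0.50 for E2f8, and in Y -0.62 and -1.21. They were not computed with another pseudocount. E2f7 was at 0.320 to 0.598 TPM in N, and its log2 fold change in EY was 1.92 with a pseudocount of 1 TPM in place of 3.07.

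Regulators upstream of the pocket proteins were followed as well. Among 9 genes of cyclins, kinases and a phosphatase that lead to phosphorylated pocket proteins, limma called 7 higher in EY, 3 in E and 4 in Y, beside 23.9%, 1.71% and 7.17% of all genes, with medians of 1.52, 0.34 and 0.69. The D cyclin genes Ccnd1 (log2 fold change -0.83, limma adjusted p = 0.0356) and Ccnd2 (-0.80, adjusted p = 0.0695) pointed lower in E without passing. Ccnd3 was at 0.305 in E (limma adjusted p = 0.525) and did not pass either. Ccne1, the cyclin E gene and an E2F target, had means of 3.27 ± 1.05 (N), 16.5 ± 3.20 (E), 9.08 ± 2.7 (Y) and 25.1 ± 4.97 TPM (EY; SD). Cdk6, a kinase partner of D cyclins, had 1.10 ± 0.243 (N), 0.90 ± 0.181 (E), 3.09 ± 0.645 (Y) and 4.45 ± 0.689 TPM (EY), and was higher in Y (log2 fold change 1.43, adjusted p = 0.000334) and EY (1.94, adjusted p = 2.30e-07) by limma. Cdk2 was higher in E (1.06, limma adjusted p = 5.40e-05) and EY (1.32, adjusted p = 1.63e-07), with 0.30 in Y (adjusted p = 0.193). Of 6 CDK inhibitor genes, Cdkn2c, Cdkn2d and Cdkn1c were higher in both EY and E, Cdkn2b was lower in EY, and 0 changed in Y by limma, with 2 at an unadjusted p under 0.05. Of all genes, 23.9% were higher and 7.97% lower in EY, and 1.71% were higher in E. After scaling, 3 of the 6 were lower in EY, where 3133 of all genes were lower. With Cdkn2a counted, 3 listed inhibitors were higher in EY after scaling, in place of 4 before it. The medians of the 6 without scaling were 0.23, 0.79 and -0.10 (EY, E and Y). No test is given for Cdkn2a, which passed the filter through its E and EY mice.

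The partners through which p107 and p130 form the DREAM complex were also followed. Of 7 tested genes of the MuvB core and its partners (Lin52 was not analysed here), 5 were higher in EY, 1 in E (Foxm1) and 2 in Y (Mybl2 and Foxm1) by limma, beside the same shares of all genes, with medians of 1.10, 0.63 and 0.42. Mybl2, which replaces the pocket protein on MuvB in cycling cells, had 1.59 ± 0.373 (N), 3.05 ± 0.841 (E), 6.43 ± 0.254 (Y) and 10.5 ± 2.15 TPM (EY). All Y mice were above all E mice for Mybl2, whereas for Rbl1 and E2f7 the Y mean was below that of E.

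**Figure D5:**
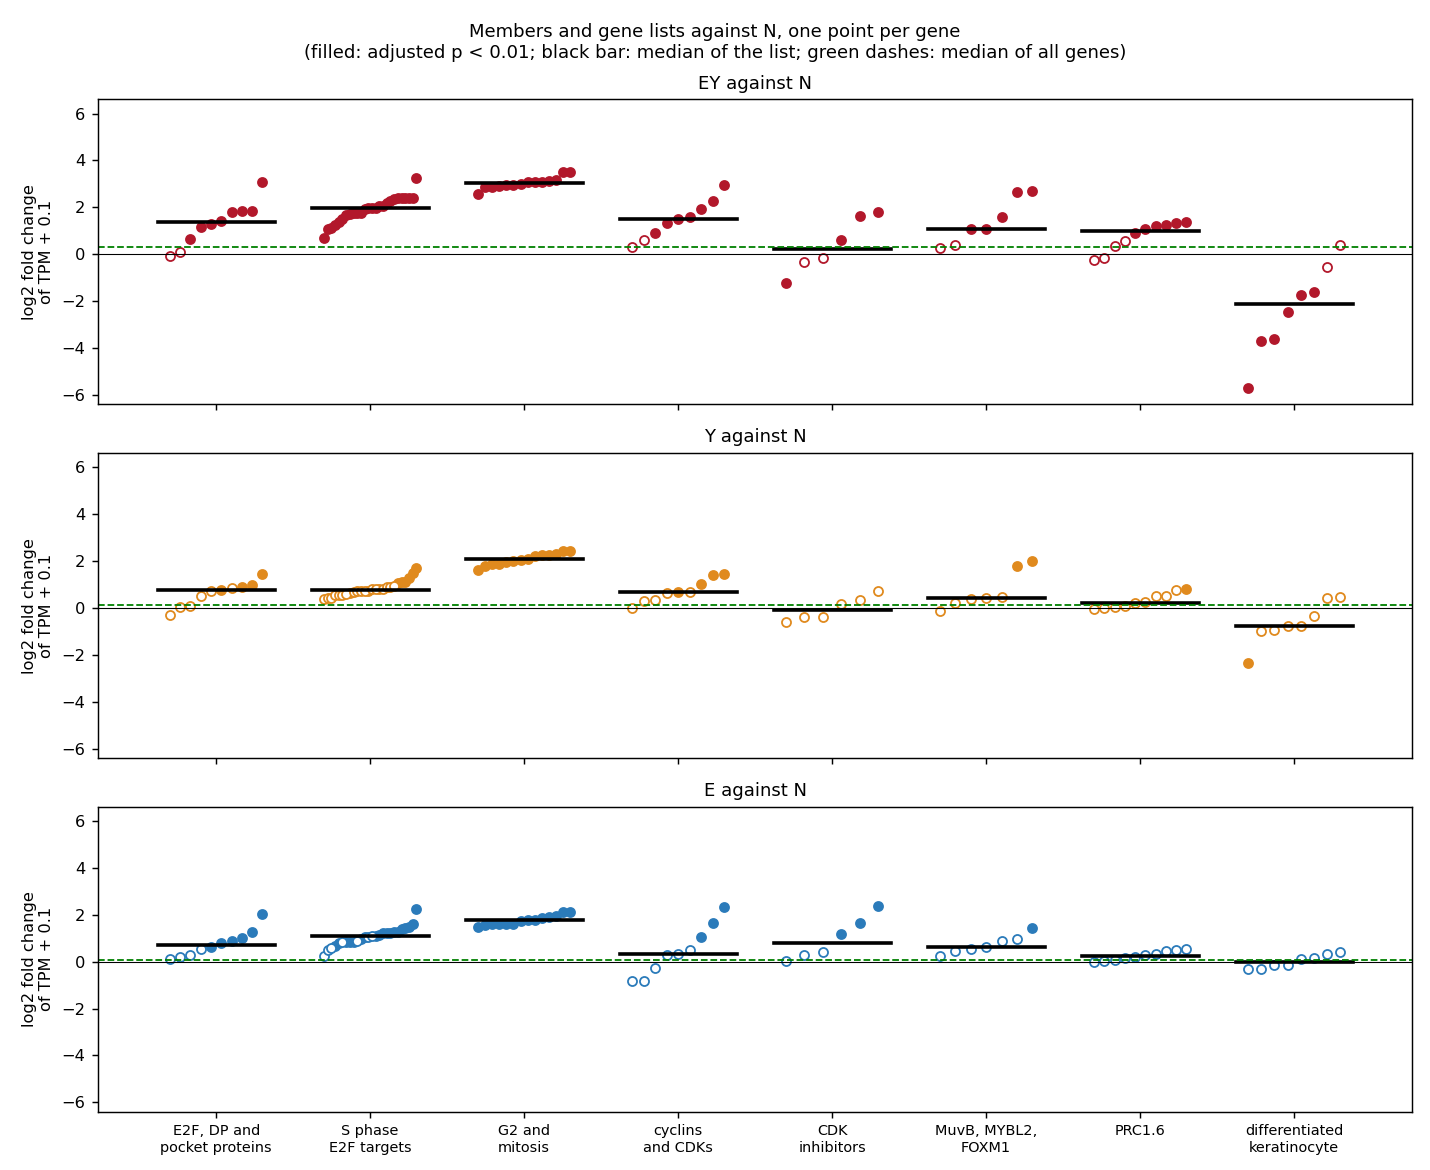
Log2 fold change of TPM + 0.1 (y axis) of every tested gene of the members and of 7 gene lists (x axis) in EY, Y and E against N; filled points have an adjusted p below 0.01 by limma, black bars are list medians and the dashed line is the median of all genes tested. The 14 mitosis genes are filled in all 3 comparisons, and genes with a mean below 0.1 TPM in N are not drawn.

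Markers of the layers of the epithelium differed between genotypes as well. Of 8 markers of differentiating keratinocytes, 6 were lower in EY, 0 in E and 1 (Krt10) in Y by limma. Of the 22745 genes tested, 1813 (7.97%) were lower in EY, 10 in E and 304 in Y. The 8 markers had medians of -2.10, -0.01 and -0.76, and Krt13 was the most abundant in every mouse but EY mouse 1, where Krt6a was. Their summed TPM were 146593, 76543, 115722, 122000 and 120548 in the N mice, 102312, 125574, 129286, 71840 and 109910 in the E mice, 99955, 51520 and 78804 in the Y mice, and 38195, 42150 and 50754 (lowest, median and highest) in the EY mice. Every EY mouse was below every other mouse, and none of these markers was at 0. Of 7 basal keratinocyte markers, 3 were higher (Krt5, Krt14 and Itga6) and 2 lower (Krt15 and Col17a1) in EY, beside 23.9% and 7.97% of all genes, and 0 changed in Y or E. Their summed TPM, led by Krt14 in every mouse, ran from 9261 to 14624 (N), 8973 to 15475 (E), 17104 to 31006 (Y) and 16016 to 32189 (EY). After scaling 1 was higher and 2 were lower. The part of these layers in the levels of the members was not tested.

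Markers of other cell types varied between mice. Of 12 leukocyte markers without Ly6g, S100a8 alone was higher in EY and in Y by limma, beside 23.9% and 7.17% of all genes. Cd207 was among those lower in EY, beside 7.97% of all genes. The summed TPM of all 13 markers were led by Cd68 in each N and E mouse and by S100a8 in each Y and EY mouse. They were 206, 65.1, 39.8, 46.9 and 35.1 in the N mice, 97.4, 162, 126, 36.5 and 134 in the E mice, 520, 688 and 417 in the Y mice and 134, 512 and 738 (lowest, median and highest) in the EY mice. S100a8 is also made by inflamed keratinocytes. Ly6g was at 0 in all N, E and Y mice and above 0 in 5 of 6 EY mice. It rested on at most 14 reads in a mouse and passed the filter through its EY mice alone, and no test is given for it. Of 9 stromal markers, Kdr had a mean below 0.1 TPM in N, and no test is given for it. Of the other 8, 1 was lower in EY (Dcn) by limma, beside 7.97% of all genes. Dcn or Col3a1 was the most abundant in 18 of the 19 mice and Col1a1 in EY mouse 4. The summed TPM of all 9 ran from 24.1 in a Y mouse to 294 in an N mouse. Of the 8 muscle markers, Myh2 passed the filter through its Y and EY mice, and no test is given for it. The other 7 had positive log2 fold changes in EY, between 1.27 and 2.09 (median 1.79). Of these 7, 0 changed in any comparison with N by limma, with 0 at an unadjusted p under 0.05 in EY. The summed TPM of all 8, led by Acta1 in 18 of the 19 mice, had medians of 50.3 in N and 176 in EY and ran from 7.66 in a Y mouse to 1355 in EY mouse 3. The vessel marker Kdr was at 0 in 4 of the 19 mice and Myh2 of fast muscle in 7. Their part in the levels of the members was not tested.

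For each member the 3 genes with the most similar values over the 19 mice were found among 15593 genes, by the root mean square difference of log2 levels relative to N. Tfdp1 had the closest neighbours, Snrnp40 (0.13), Nup62 (0.13) and Lrwd1 (0.14), and E2f7 the most distant, Nek2 (0.33), Ncaph (0.34) and Tacc3 (0.34). The nearest to E2f1 was Pola2 (0.21), to E2f2 Fanca (0.25), to E2f3 Ago2 (0.14), to E2f6 Nup133 (0.17) and to E2f8 Ncapd2 (0.27). Rbl1 was nearest to Tinf2 (0.14), Rb1 to Zfp280d (0.16) and Rbl2 to Ddx17 (0.17). No member was among the 3 nearest genes of another.

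The N mice differ in genotype, and N mouse 5, which lacks rtTA, held the lowest N value for 7 of the 10 members, while N mice 2 and 3 held the highest for 4 members each. Against only N mice 1 to 3, the members that were higher numbered 7 in EY, 2 in Y and 2 in E, beside 3911, 819 and 209 of all genes. Some members share exon bases with a gene on the opposite strand in GENCODE M21, namely 0.955% of E2f7 with 1700020G17Rik, 11.2% of E2f8 with Gm2788, 6.78% and 8.11% of Rb1 with Lpar6 and Rcbtb2, and 9.17% and 11.8% of Rbl2 with Aktip and Gm45464. Whether reads were counted by strand was not given in the sources used here, so reads from these stretches may belong to either gene.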

How the data were processed

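The authors aligned reads with STAR 2.7.9 to GRCm39, sorted them with SAMtools 1.7, counted them with HTSeq 0.13.5 and deposited TPM values of 24689 gene symbols in 19 mice; the step from counts to TPM is not described. For enrichment analyses the authors describe other TPM, from Kallisto and a human transcriptome, with the highest transcript value taken for each gene. The deposited values are different in form: for all 24680 genes above 0 they were whole multiples of a step, as counts of whole reads per gene give. From these TPM, genes that reached 0.1 in 3 or more mice went into a limma fit (limma 3.58.1, R 4.3.3, moderated t with trend) of log2(TPM + 0.1) over the 4 groups, with Benjamini-Hochberg adjustment over 22745 genes, a threshold of 0.01 and, for DEGs, a log2 fold change beyond 1. Whole reads were recovered from the steps of the TPM and given to voom as an alternative. Ratios were tested by exact permutation of mice, adjusted over 24 tests, with a threshold of 0.05. Lists of targets, mitotic genes, regulators and cell type markers were written from general knowledge. A result on 1 marker is not reported here. Besides members and listed genes, only the nearest genes of each member (3 were sought) and genes that overlap its exons are named. The members and lists were chosen with earlier results of these data known. Scripts ran in Python 3.11.15 (numpy 2.4.6, pandas 2.3.3, scipy 1.17.1, matplotlib 3.10.9); a self-test of the fit and of the read recovery preceded them.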

Additional observations from a re-analysis of the deposited data

Results flagged for a closer look

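Among 42 groups of a member or ratio, 2 held a mouse that lay apart from the rest of its group by more than the distances within it. E2f3 was 1.729 TPM in EY mouse 4, the lowest of the 6 EY mice. The E2f7/E2f1 ratio was 0.04374 in N mouse 3, the lowest of the 5 N mice, which also had the lowest E2f7 and the highest E2f1 of that group. Both mice were kept in every test. With small groups a few such gaps arise by chance, and their cause was not tested.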

How the results depend on the processing

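Members against N kept their direction and call in 318 of 360 alternative fits and in 538 of 570 fits without a mouse, and the members in EY against Y or E in 225 of 240 and 361 of 380.

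These results turned sign. Rb1 in EY against N was -0.26 after median-of-ratios scaling, -0.23 after quantile normalization and -0.0597 with voom. E2f3 in Y against N was -0.13, -0.0194 and -0.0318 in the same 3, and -0.12 against the 3 N mice with Krt14-CreERT and rtTA. Rbl2 was -0.10, -0.0698 and -0.0082 in Y against N, and -0.0058 (scaling) and -0.0017 (quantile) in E against N. The E2f7 interaction was 0.0655 with a pseudocount of 1 TPM. Both normalizations centre each mouse, which removes the shift; the cause of the other turns was not tested.

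Genes changed in EY against N were 3081 higher and 3133 lower after scaling and 3211 and 3010 after quantile normalization. In Y against N they were 887 and 539 after scaling, 845 and 487 after quantile normalization, 819 and 153 against 3 N mice, 655 and 141 with only the groups compared and 2961 and 789 at an adjusted p below 0.05, with 493 lower by voom. In E against N, 209 were higher against 3 N mice, 165 with only the groups compared and 755 at 0.05.

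Members called in Y against N were 2 against 3 N mice, 0 with only the groups compared and 7 at 0.05, and DEGs 0 with a pseudocount of 1 TPM and with only the groups compared. In E against N, 2 were called and 1 was a DEG against 3 N mice, and 1 and 1 with only the groups compared. In EY against Y, 2 were called after scaling and with only the groups compared. In EY against E, 2 were called after quantile normalization (E2f6 and Tfdp1), and 4 members were DEGs in EY against N. Against 3 N mice the ratio differences were 1.30 (EY) and 0.76 (E) for Rbl1/Rbl2 and 2.16 and 1.51 for E2f7/E2f1, none below 0.05 after adjustment of the exact permutation p, which fewer mice limit.

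Without a mouse, the ranges were -0.14 to 0.0194 for Rbl2 in EY against N, -0.0565 to 0.22 for E2f3 in Y against N, -0.18 to 0.0596 for E2f2 and -0.0556 to 0.0334 for Rbl2 in Y against E, -0.0219 to 0.17 for the Tfdp1 interaction and -0.0044 to 0.36 for E2f8/E2f1 in Y against N. Members called ranged from 2 to 6 in Y against N (DEGs 1 to 2) and from 2 to 4 in EY against Y, and genes changed in Y against N from 747 to 1700 higher and from 149 to 309 lower.

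With the mouse number as a replicate block, 1 member was called in EY against Y and Rbl2 was 0.0233 in Y against E. Mice of the same number had correlations of -0.05 to 0.078 over 24 pairs, 0 of them over 0.1, so they share only a number.

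The Y group holds 3 mice, protein levels were not measured, and the promoter letters come from GRCm38 while reads were counted on GRCm39.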
